A study of Mus musculus with 12 samples.

Results

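The Mir29, Mir148 and Mir152 genes encode miRNAs with published targets among the DNA methyltransferases, and their small RNAs were measured here in mouse embryonic stem cells (ESCs) that lacked Dnmt1 or both Dicer and Dnmt1. The members were chosen by name, as the table lists them: Mir29a, Mir29b-1, Mir29b-2, Mir29c, Mir148a, Mir148b and Mir152. These are 7 of the 32101 annotated features of the table. A read was found for 6 of the 7 members, and 3 of the 7 had enough reads to be tested.

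A total of 12 small RNA libraries of 20 to 24 nt reads were compared. The 6 WT libraries, labelled Wildtype, are titled with the numbers 1 to 3 and the letters A and B. Among these, the titles with the numbers 1 and 3 hold WT, and those with the number 2 leave it out. The 4 Dicer/Dnmt1 KO libraries, labelled Dicer/Dnmt1 -/-, carry the numbers 1 and 2 with both letters, and the 2 Dnmt1 KO libraries, labelled Dnmt1 -/-, the letters alone. In the study's methods the deletions are conditional, made by a Cre recombinase that 4OHT switches on in cells with loxP-flanked alleles, and the days after induction are not given in the labels. The study also made a constitutive Dicer knockout on the Dnmt1 loxP/loxP background. Its legend for small RNA-seq names the conditional double knockout, and the labels here do not say which line was used. Every library is labelled with the E14 background strain, whereas the methods describe the Dnmt1 loxP/loxP line as C57BL/6 and derive the Dicer/Dnmt1 line from it. For its small RNA data the study names uninduced cells with floxed Dicer and Dnmt1 as WT, but the labels do not say which of the 6 WT libraries these are. No label says whether a number or a letter marks a separate culture or a repeat library, and p-values measure only the spread between these libraries, which may be technical.

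A miRNA is cut from a hairpin precursor, in most cases by Dicer, and then guides an Argonaute protein to mRNAs that pair with its seed, bases 2 to 8 of the mature strand. DNMT3A and DNMT3B place DNA methylation on unmethylated sites, DNMT1 copies it after replication with the help of UHRF1, and the TET enzymes and TDG act in its removal. The miR-29 family is known for pairing with Dnmt3a and Dnmt3b mRNAs and miR-148 and miR-152 for pairing with Dnmt1 mRNA, and the loss of the Mir290 cluster in Dicer-deficient ESCs is known to affect the de novo methyltransferases by way of another target.

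The 7 members carry 6 different mature strands on the 3p arm. They are printed 5′ to 3′ from RefSeq (GRCm38.p6), where all 7 members were matched, with the seed in capitals, because the seeds split the members into 2 families and the other bases tell the members of a family apart in the reads.
miR-29a-3p: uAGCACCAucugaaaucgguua
miR-29b-3p: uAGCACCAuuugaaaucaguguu
miR-29c-3p: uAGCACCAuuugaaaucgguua
miR-148a-3p: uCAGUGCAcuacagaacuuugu
miR-148b-3p: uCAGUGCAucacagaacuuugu
miR-152-3p: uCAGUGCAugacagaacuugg
Counting from 1 at the 5′ end, miR-29a-3p and miR-29c-3p differed by 1 substitution, C10U. miR-29a-3p and miR-29b-3p differed by 4 substitutions over 22 bases (C10U, G18A, U21G and A22U). miR-148a-3p and miR-148b-3p differed by C9U and U10C. miR-148a-3p and miR-152-3p differed by C9U, U10G and U20G over 21 bases.

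In the genome build of the files, NCBIM37, the sequences of miR-29a-3p, miR-29c-3p, miR-148a-3p, miR-148b-3p and miR-152-3p each had 1 exact match, inside the hairpin of the same name. miR-29b-3p had 2 exact matches, 1 in Mir29b-1 and 1 in Mir29b-2, so a full-length read of it cannot be given to 1 of the 2 genes. The placement of reads with several mapping positions is not stated for the table. Each feature holds the reads of both arms of its hairpin, so the arm of a read is not known.

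The members lie at 5 places in NCBIM37. Mir29a (chr6:31012660-31012747) and Mir29b-1 (chr6:31013017-31013097) lie on the minus strand, 269 bases apart, with no other feature of the table over them. Mir29b-2 (chr1:196863234-196863314) and Mir29c (chr1:196863741-196863828) lie on the plus strand, 426 bases apart, in exonic sequence of the lincRNA A330023F24Rik. Mir148a (chr6:51219811-51219909, minus strand) had no overlapping feature. Mir148b (chr15:103115556-103115652, plus strand) lies in an intron of Copz1, and Mir152 (chr11:96711707-96711779, plus strand) in an intron of Copz2, which both encode coat proteins of Golgi vesicles. The reads of these 2 hosts were almost all those of the miRNAs. Copz1 carried 333 reads against 327 of Mir148b, and Copz2 carried 16 against 16 of Mir152, since a read inside a miRNA was counted for its host too. A330023F24Rik held 8 reads, 7 of them those of Mir29c.

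The published targets differ between the families at the level of sequence. The 7-letter complement of the miR-29 seed, TGGTGCT, was searched on the transcript strand in the longest annotated 3′ UTR of each of 19915 protein-coding genes (GENCODE on NCBIM37), and 12.4% of them held it. The complement of the miR-148 and miR-152 seed, TGCACTG, was found in 12.3%. Sites are printed because they show where the seed matches of each family lie in these 3′ UTRs. They are in the letters of the transcript with the seed match in capitals.
Dnmt1, miR-148 family: acccagagccccacgTGCACTGa
Uhrf1, miR-148 family: ctggttttcagagagTGCACTGa
Dnmt3b, miR-29: tagagtagcccggcaTGGTGCTc
Dnmt3a, miR-29: cccaggggaggtagcTGGTGCTa
Dnmt3a, miR-29: agcggggtcccaagcTGGTGCTa
The Dnmt1 window is chr9:20711935-20711957 (minus strand) and its match begins at base 23 of a 3′ UTR of 315 bases. The Uhrf1 window is chr17:56462523-56462545 and the Dnmt3b window chr2:153512348-153512370, both on the plus strand. The 2 Dnmt3a windows are chr12:3911390-3911412 and chr12:3911459-3911481 on the plus strand, and they are the 2 of its 5 matches that are followed by an A.

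Dnmt3a held 5 miR-29 seed matches in 6696 bases and Dnmt3b held 1 in 1331 bases, and neither held a match of the miR-148 family. Dnmt1 and Uhrf1 each held 1 match of the miR-148 family and no miR-29 match. The genes of demethylation held mostly miR-29 matches, with 7 in Tet1, 5 in Tet2, 8 in Tet3 and 3 in Tdg, and Tdg also held 2 overlapping matches of the miR-148 family. Dnmt3l, the catalytically inactive partner of the de novo enzymes, held neither. Length matters for these counts. Among 3′ UTRs within 1.2 times the length of that of Dnmt1, 2.89% held the match of the miR-148 family, and among those like Dnmt3a in length, 47.0% held the miR-29 match. For lengths like that of Uhrf1, 10.1% held the match of the miR-148 family. The miR-29 match was held by 12.7% at lengths like Dnmt3b, 27.2% like Tet2, 46.0% like Tet3 and 50.4% like Tet1. Coding sequence was not searched. A match is a description of letters and no evidence of repression in these cells.

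**Figure D1:**
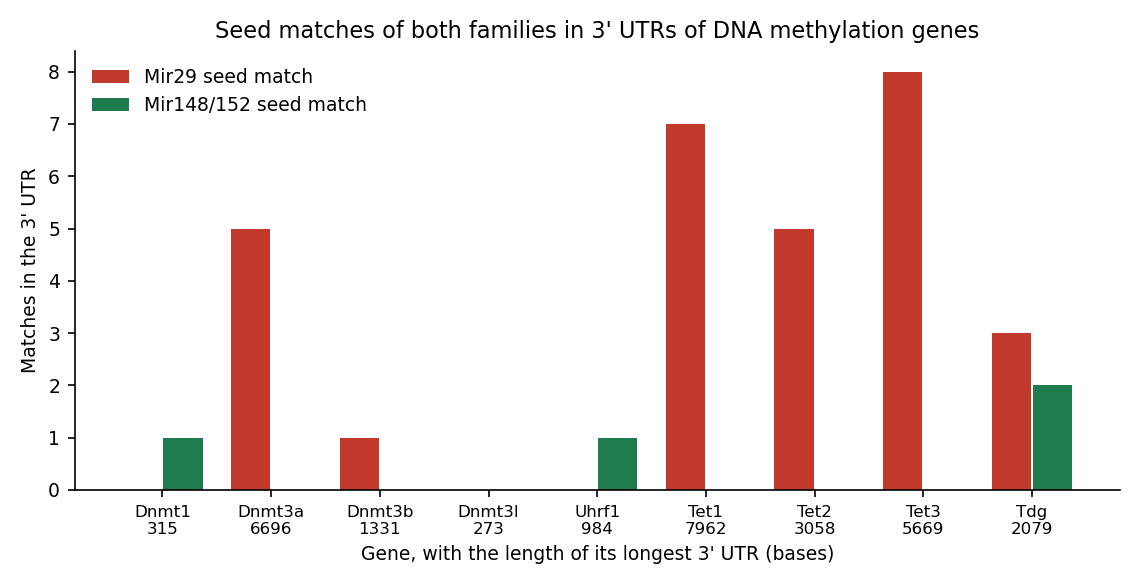
Number of 7-letter seed matches (vertical axis) in the longest annotated 3′ UTR of 9 DNA methylation genes, with the length of the UTR in bases under each gene. Red bars are miR-29 matches and green bars matches of the miR-148 family (miR-148a, miR-148b and miR-152); Dnmt3a (5) and Dnmt3b (1) held miR-29 matches alone, and Dnmt1 (1) and Uhrf1 (1) held matches of the miR-148 family alone.

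Levels are given as RPM, the reads of a feature scaled by the reads of its library (reads per 1000000). Library reads ranged from 8710 (Dicer/Dnmt1 KO 1B) to 245184 (WT 1A), so that 1 read stood for 115 and 4.08 RPM in these 2 libraries. Values of single libraries are listed in the order 1A, 1B, 2A, 2B, 3A and 3B for WT, A and B for Dnmt1 KO, and 1A, 1B, 2A and 2B for Dicer/Dnmt1 KO. As a check of the labels, the miRNAs of the ESC list (Mir290 to Mir295, Mir302 and Mir367, 12 genes) were summed. All 12 had a read in WT and 10 in each knockout group, where Mir302c and Mir367 had no read. The sums were 28683 to 93275 RPM in WT, 99648 and 55926 in the Dnmt1 KO libraries, and 1221 to 3797 in Dicer/Dnmt1 KO. In Dicer/Dnmt1 KO against WT all 10 tested genes of the list were called, each with a fall. In Dnmt1 KO against WT none of the 10 was called, and the genes differed in direction. Mean RPM in WT and Dnmt1 KO was 428 and 79.6 for Mir302a, 197 and 24.1 for Mir302b and 1063 and 279 for Mir302d. Mir290, Mir291a, Mir292 and Mir293 had higher means in Dnmt1 KO. None of 3 neural and none of 4 muscle miRNAs on the marker lists had a read in any library. Of 6 endoderm miRNAs 5 had a read, with a sum of at most 1549 RPM in WT, 2323 in Dnmt1 KO and 81.7 in Dicer/Dnmt1 KO. The 1 tested was Mir192, with a mean of 604 RPM in WT and 2065 RPM in Dnmt1 KO. It was called lower in Dicer/Dnmt1 KO than in WT, and its value in Dnmt1 KO against WT was 2.51 on the log2 scale (limma adjusted p = 0.2375). Library WT 2A stood apart, with 16142 reads of which 41.3% lay in Mir182. This share was 18.2% in WT 2B, 21.1% and 21.4% in the Dnmt1 KO libraries and 3.53% to 6.58% in the other 4 WT libraries. The deleted genes do not check the labels here. Over all of Dnmt1, the mean level of 20 to 24 nt fragments was 70.2 RPM in WT (62 reads), 101 RPM in Dnmt1 KO (17 reads) and 109.8 RPM in Dicer/Dnmt1 KO (14 reads), so it was not lower in the libraries labelled Dnmt1 -/-, and reads of the deleted part were not separated from the rest of the gene. Dicer1 had 9 reads in all, 1 of them in Dicer/Dnmt1 KO.

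Mir148a was the member with most reads in every WT and Dnmt1 KO library, and it was almost lost in Dicer/Dnmt1 KO. Its level in the WT libraries was 2867, 4241, 5823, 7717, 3257 and 3016 RPM, a mean of 4487 ± 1928 (SD, n = 6). In the Dnmt1 KO libraries it was 11850 and 15659 RPM, with a mean of 13755 ± 2693 (SD, n = 2). In the 4 Dicer/Dnmt1 KO libraries it was 408, 459, 331 and 113 RPM, from 10, 4, 21 and 17 reads, with a mean of 328 ± 153 (SD, n = 4). The 3 groups did not overlap, but how many other features separate the groups in this way was not counted. The Dicer/Dnmt1 KO mean was 13.7-fold below WT and 42.0-fold below Dnmt1 KO, and the Dnmt1 KO mean was 3.07-fold above WT. In bulk samples, fewer cells with a miRNA and less of it per cell cannot be told apart.

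In the order of mean level, Mir148a stood at rank 12 of 308 miRNAs with a read in WT, rank 11 of 302 in Dnmt1 KO and rank 30 of 224 in Dicer/Dnmt1 KO. It made up 0.838% to 1.53% of all miRNA reads in the WT libraries. The Dnmt1 KO libraries had shares of 1.81% and 2.50%, and the Dicer/Dnmt1 KO libraries ranged from 0.158% to 0.687%. The highest of these last shares, in library 1B, was 4 of 582 miRNA reads, with a 95% Wilson interval from 0.268% to 1.75% that reached into the WT range. Intervals and limits on single libraries cover counting error only.

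Mir148b followed the pattern of Mir148a at a lower level. It had 179, 179, 248, 392, 194 and 222 RPM in the WT libraries, with a mean of 236 ± 81.2 (SD, n = 6). In the Dnmt1 KO libraries it had 827 and 846 RPM, and the Dicer/Dnmt1 KO libraries had 40.8, 0, 15.8 and 19.9 RPM. These last values came from 1, 0, 1 and 3 reads. The 3 groups did not overlap, and again the share of features that do so was not counted. The 0 in the shallowest library allows up to 344 RPM, which is inside the WT range, so a loss there was not detectable at its depth.

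The proportion between these 2 miRNAs, which have the same seed and come from chromosomes 6 and 15, was alike in WT and Dnmt1 KO libraries. Mir148b made up 4.06% to 6.87% of the reads of Mir148a and Mir148b together in the 6 WT libraries, and 5.12% and 6.53% in Dnmt1 KO. In Dicer/Dnmt1 KO it was 0 to 15%, over 4 to 22 reads a library, where the 95% Wilson intervals of 3 libraries spanned the whole WT range and that of 2B ran from 5.24% to 36.04%.

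Mir152 was near the limit of detection. It had 0, 1, 1, 1, 0 and 1 reads in the WT libraries. The Dnmt1 KO libraries had 2 and 5 reads, and the Dicer/Dnmt1 KO libraries had 1, 0, 1 and 3. The mean level was 13.8 ± 23.8 RPM for WT (SD, n = 6), 38.01 ± 11.96 RPM for Dnmt1 KO (SD, n = 2) and 19.1 ± 16.8 RPM for Dicer/Dnmt1 KO (SD, n = 4), and the groups overlapped. Without both libraries of WT 2, of which 2A turns 1 read into 62.0 RPM, the WT mean was 3.46 RPM. Mir152 was not tested.

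Mir29a was low in WT, and its levels in Dicer/Dnmt1 KO were not below those of WT. It had 40.8, 41.4, 62.0, 42.8, 27.7 and 48.6 RPM in the WT libraries, with a mean of 43.9 ± 11.2 (SD, n = 6) from 32 reads in all. In the Dnmt1 KO libraries it had 207 and 195 RPM, from 14 and 21 reads. In the 4 Dicer/Dnmt1 KO libraries it had 204, 115, 804 and 92.9 RPM, from 5, 1, 51 and 14 reads, with a mean of 304 ± 337 (SD, n = 4). Every knockout library lay above every WT library on the RPM scale, and Dicer/Dnmt1 KO overlapped Dnmt1 KO. How many other features lie above WT in this way was not counted, and the value of library 1B rests on 1 read. Library 2A gave 51 of the 71 Mir29a reads of its group, and without it the mean of the group was 137 RPM.

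The other Mir29 genes gave 10 reads in all. Mir29c had 2 reads in WT 1A and none in the other WT libraries, 2 reads in each Dnmt1 KO library, and 1 read in Dicer/Dnmt1 KO, in library 1B. Its mean level was 1.36 ± 3.33 RPM for WT (SD, n = 6), 24.1 ± 7.75 RPM for Dnmt1 KO (SD, n = 2) and 28.7 ± 57.4 RPM for Dicer/Dnmt1 KO (SD, n = 4). Mir29b-1 had 1 read in each of WT 1A, 2B and 3A and none elsewhere, and Mir29b-2 had no read in any library. The count of 0 over a whole group allows Mir29b-2 up to 3.93 RPM in WT, 17.1 in Dnmt1 KO and 12.1 in Dicer/Dnmt1 KO. Because the table does not say how the shared miR-29b-3p sequence was placed, the low counts of both Mir29b genes are uncertain.

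**Figure D2:**
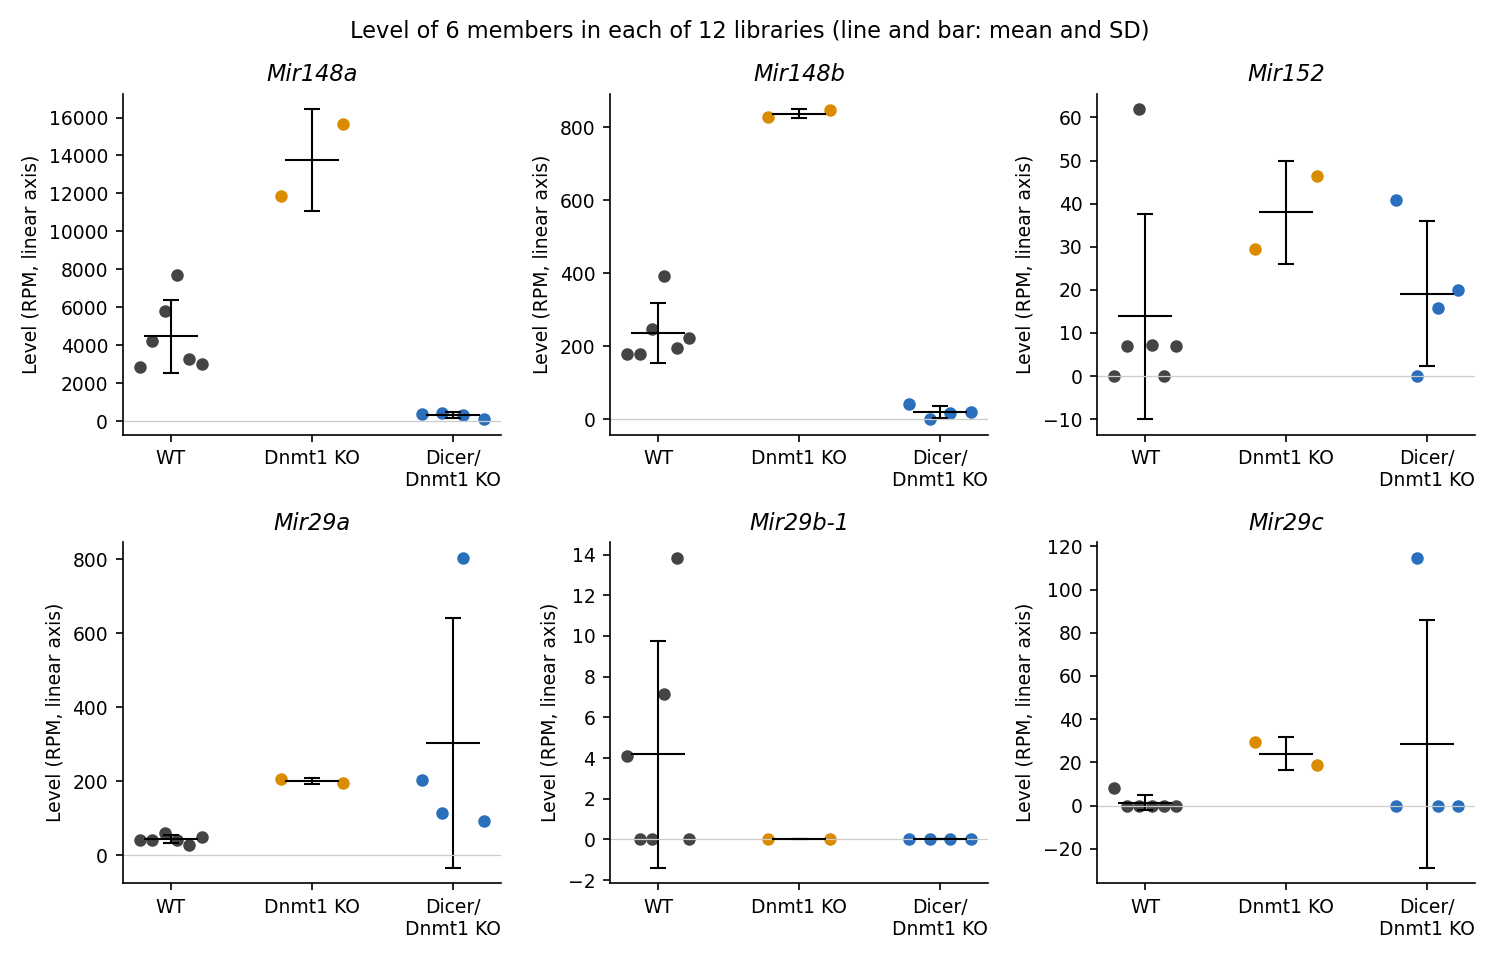
Level in RPM (vertical axes, linear, a separate scale in each panel) of the 6 members with a read, by group. Points are libraries and the line and bar give the mean and SD (6 WT, 2 Dnmt1 KO and 4 Dicer/Dnmt1 KO libraries); Mir148a and Mir148b are highest in Dnmt1 KO and lowest in Dicer/Dnmt1 KO, whereas Mir29a in Dicer/Dnmt1 KO (92.9 to 804 RPM) lies above WT (27.7 to 62.0 RPM).

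The balance between the families within a library differed between Dicer/Dnmt1 KO and the other groups, as a ratio that no scaling between libraries can move. Mir148a gave most of the reads in WT and was 13.7-fold lower in Dicer/Dnmt1 KO, and such a fall by itself raises the share of the Mir29 genes. The mean summed level of the Mir29 genes was 49.4 RPM in WT and 333 RPM in Dicer/Dnmt1 KO (176 RPM without library 2A). That of Mir148a, Mir148b and Mir152 was 4736 and 366 RPM. How much of the share came from each family was not tested. The 4 Mir29 genes made up 0.611% to 1.71% of the reads of the 7 members in the WT libraries, and 1.83% and 1.27% in those of Dnmt1 KO. In the 4 Dicer/Dnmt1 KO libraries they made up 29.4%, 33.3%, 68.9% and 37.8%, from 5 of 17, 2 of 6, 51 of 74 and 14 of 37 reads. The lowest bound of the 95% Wilson intervals of these 4 libraries was 9.68% (library 1B), and the highest bound of the 8 other libraries was 5.45% (WT 2A). Within miRNA reads, Mir29a took 0.00769% to 0.0141% in WT. It took 0.0316% and 0.0311% in the Dnmt1 KO libraries, and its share reached 0.130% to 0.784% in Dicer/Dnmt1 KO. All miRNAs together made up 29.5% to 65.8% of the counts in the table in WT and 6.55% to 12.7% in Dicer/Dnmt1 KO, so the denominator of this last share was lower there too.

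**Figure D3:**
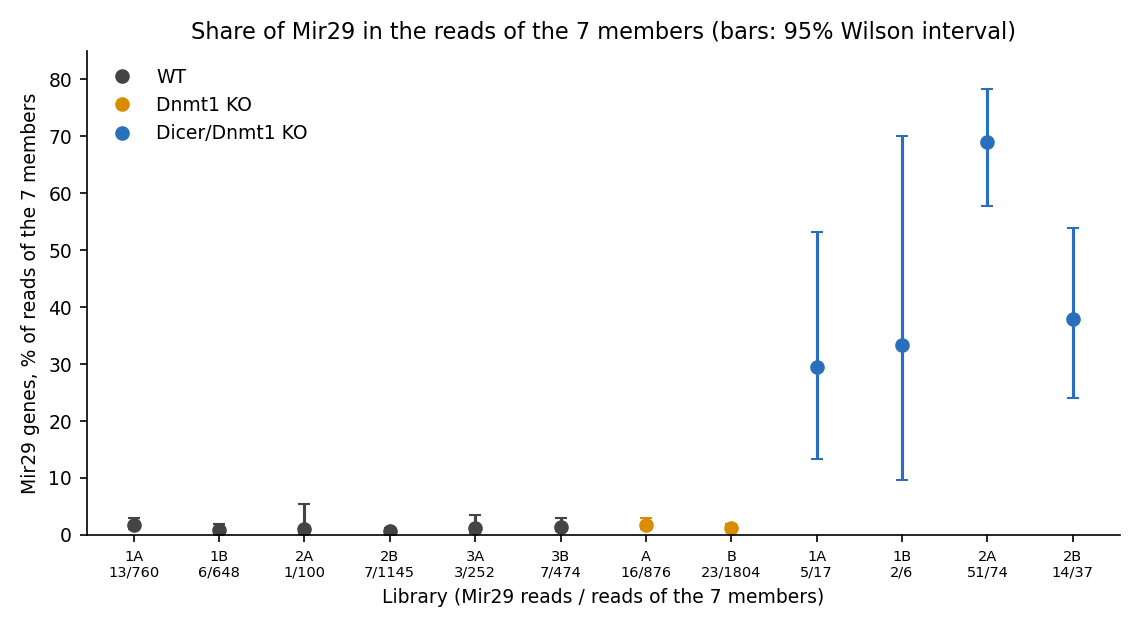
Reads of the 4 Mir29 genes as a percentage of the reads of the 7 members (vertical axis) in each library (horizontal axis, with the reads behind each value); points are single libraries and bars 95% Wilson intervals. The 4 Dicer/Dnmt1 KO libraries lie between 29.4% and 68.9% and the other 8 between 0.611% and 1.83%, a share whose denominator fell with Mir148a.

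For the tests, reads were scaled between libraries by trimmed means of log ratios and fitted as log2(RPM + 10) with limma over all 3 groups. Fold changes are on that log2 scale, which understates the change of members with few reads, and p-values were adjusted by Benjamini-Hochberg over 683 features. A feature needed at least 111 RPM in 2 libraries to be tested. Mir29a reached this in knockout libraries only, as its highest WT level was 62.0 RPM. Its comparisons with WT and its rank in them thus rest on a selection by the groups where it was high. Without this filter its limma adjusted p against WT was 0.732 for Dicer/Dnmt1 KO and 0.818 for Dnmt1 KO.

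The comparison of Dicer/Dnmt1 KO with WT sets the loss of both enzymes beside cells labelled Wildtype. Since the labels do not tell which WT libraries are uninduced floxed cells, line, induction and genotype cannot be told apart. Of the 3 tested members 2 were called, both lower, against 24.2% of all 683 features (35 higher and 130 lower). Among the 133 tested miRNAs, 81 were called lower and 16 higher. Mir148a fell by 4.64 (SE 0.51, limma adjusted p = 9.58e-06) and Mir148b fell by 3.73 (SE 0.52, limma adjusted p = 7.02e-05). The log2 value of Mir29a was 1.25 (SE 0.60, 95% interval -0.04 to 2.54, limma adjusted p = 0.168) and did not pass. The median of the tested miRNAs was -2.75. In their order, 22 miRNAs had a higher value than Mir29a and 110 a lower one, while 28 had a lower value than Mir148a and 48 a lower one than Mir148b.

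Whether Mir29a was called depended on the library WT 2A and on the processing. After scaling, its single Mir29a read was worth 148 RPM, inside the Dicer/Dnmt1 KO range of 58.7 to 517 scaled RPM, while the other WT libraries had 24.97 to 59.1. Without WT 2A, the fold change was 1.75 (limma adjusted p = 0.0236), with RPM left unscaled it was 2.04 (limma adjusted p = 0.0138), and with voom weights it was 1.81 (limma adjusted p = 0.0196), both with WT 2A kept. Without Dicer/Dnmt1 KO 2A, the library with most Mir29a reads, Mir29a was not called.

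The comparison of Dnmt1 KO with WT sets the loss of Dnmt1 beside cells labelled Wildtype, and here too line, induction and genotype cannot be told apart. No member of the 3 tested was called in the fit over all libraries, against 6.88% of features (28 higher and 1 lower among the 133 miRNAs). All 3 had positive fold changes and unadjusted limma p-values under 0.05, though Mir29a had passed the filter through its knockout levels. Mir29a had 2.17 (SE 0.76, 95% interval 0.53 to 3.80, limma adjusted p = 0.119), Mir148a had 1.86 (SE 0.64, 95% interval 0.47 to 3.25, limma adjusted p = 0.116) and Mir148b had 2.00 (SE 0.66, 95% interval 0.58 to 3.42, limma adjusted p = 0.100). The tested miRNAs as a class lay above WT too, with a median of 1.40. Of them, 35, 44 and 41 had a higher value than Mir29a, Mir148a and Mir148b.

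These calls changed with the libraries and the processing too. Without WT 2A all 3 members passed, with limma adjusted p-values of 0.0346 for Mir29a, 0.0221 for Mir148a and 0.0327 for Mir148b, while the calls over all features rose from 47 of 683 to 84 of 735. The fold changes were then 2.37, 2.08 and 2.15. With WT 2A kept, voom called Mir29a (limma adjusted p = 0.016) and Mir148b (limma adjusted p = 0.00928), a pseudocount of 50 called Mir148b (limma adjusted p = 0.0198), and the fit without Dicer/Dnmt1 KO 2A called Mir29a (limma adjusted p = 0.0256). The scaled levels of Mir148a in WT 2A and 2B were 13905 and 10649 RPM, against 2709 to 4215 in the other 4 WT libraries and 16173 and 20512 in Dnmt1 KO. Without both WT libraries titled E14 2, the fold change of Mir148a was 2.35 (limma adjusted p = 0.00162), and 181 of 660 features were called. With 2 Dnmt1 KO libraries that may share a culture, the spread between knockout cultures is not known.

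The comparison of Dicer/Dnmt1 KO with Dnmt1 KO sets the loss of both enzymes beside the loss of Dnmt1 alone. In the methods these are separate lines, so line and genotype cannot be told apart. This comparison shares its samples with those above. Of the 3 tested members 2 were called, both lower, against 22.8% of features, and 99 of the 133 tested miRNAs were called lower. Mir148a fell by 6.50 (SE 0.68, limma adjusted p = 1.33e-05) and Mir148b fell by 5.73 (SE 0.70, limma adjusted p = 3.21e-05), beside a median of -4.17 over tested miRNAs. Mir29a had -0.91 (SE 0.80, 95% interval -2.65 to 0.82, limma adjusted p = 0.578), and the sign turned with RPM left unscaled (0.04, limma adjusted p = 0.971). Among the 133 tested miRNAs, 15 had a higher value than Mir29a in this comparison, and none was called higher.

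**Figure D4:**
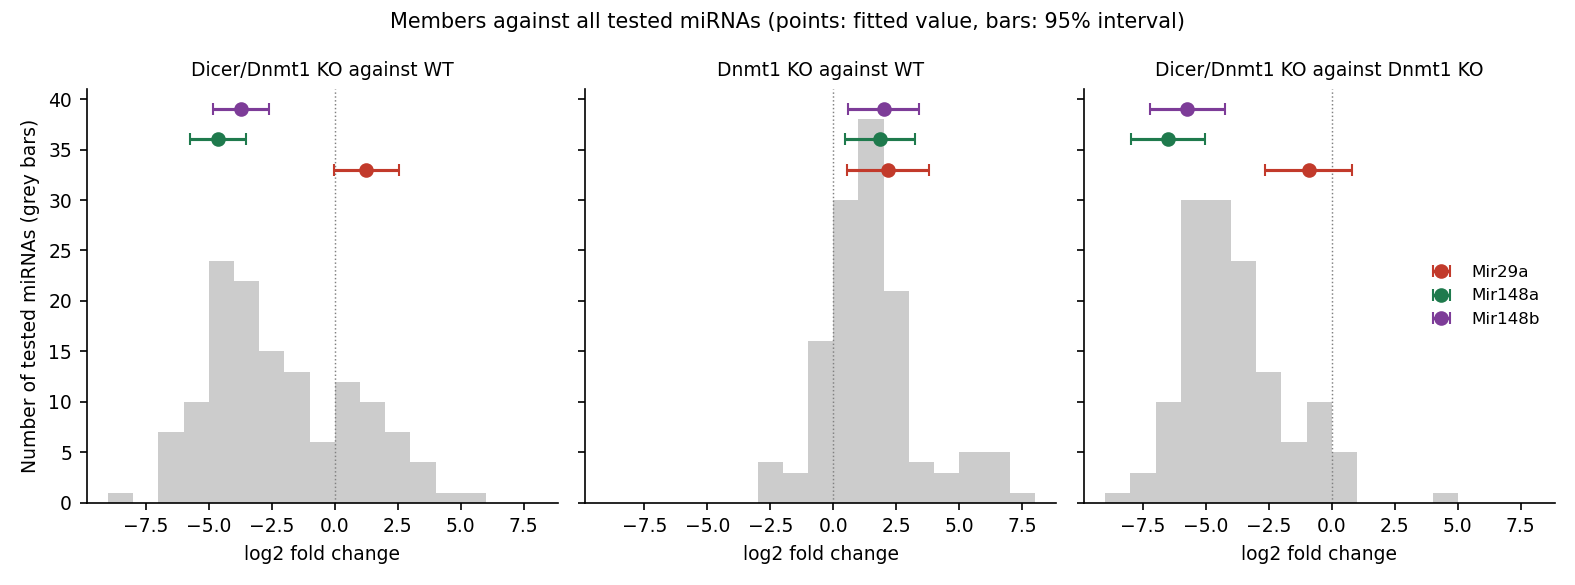
log2 fold changes (horizontal axes) of Mir29a, Mir148a and Mir148b, with 95% intervals, above the distribution of the 133 tested miRNAs (grey bars, vertical axis, number of miRNAs) in the 3 comparisons. Mir148a and Mir148b lie to the left of zero in both comparisons of Dicer/Dnmt1 KO, whereas the interval of Mir29a includes zero there (1.25 and -0.91), and all 3 lie near 2 in Dnmt1 KO against WT (1.86 to 2.17). The height at which a member is drawn has no meaning.

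Markers of fibroblasts and other mesenchymal cells, in which miR-29 is known to be abundant, were examined beside Mir29a. Of 9 listed miRNAs 8 had a read and 5 were tested. Their summed level, not scaled between libraries, was 6876 to 13923 RPM in WT. It was 37383 and 46252 RPM in the Dnmt1 KO libraries, and those of Dicer/Dnmt1 KO had 10080 to 33644 RPM. Library Dicer/Dnmt1 KO 2A, with most Mir29a reads, also had the highest sum of its group (33644 RPM), and the other 3 had 10080 to 19633. Of the defining mesenchymal miRNAs, Mir199a-1 had no read and Mir199a-2 had 1 read in all, whereas Mir214 had 16. In Dicer/Dnmt1 KO against WT, 2 of the 5 tested were called higher (Mir143 and Mir221) and none lower. Mir222 had 1.57 and was not called. Mir21 and Mir22, the most abundant of the list in WT, had -0.66 and -0.78 and were not called either. Mir221 and Mir222, like Mir29a, stayed below 111 RPM in every WT library (at most 41.6 and 83.1 RPM). In Dnmt1 KO against WT 3 were called higher (Mir21, Mir22 and Mir143). In Dicer/Dnmt1 KO against Dnmt1 KO 2 were lower, Mir21 (-2.39) and Mir22 (-3.40), and none higher. The shares called over all features were 24.2%, 6.88% and 22.8%. The part of such cells in the levels of Mir29a was not tested.

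The features whose pattern over the 12 libraries was most like that of a family differed between the families. For the summed Mir29 level these were Mir143 (Pearson r = 0.92), a smooth muscle and mesenchymal miRNA, and Mir127 (r = 0.90) and Mir410 (r = 0.89), 2 miRNAs of the imprinted Dlk1-Dio3 region on chromosome 12. The same 3 came first for Mir29a alone (r = 0.89, 0.88 and 0.88). For the summed level of Mir148a, Mir148b and Mir152 they were Mir467c (r = 0.99), Mir335 (r = 0.99) and Mcm7 (r = 0.99), whose reads include those of Mir25, Mir93 and Mir106b inside it. For Mir148b alone they were Mest, which contains Mir335, Zranb2, which contains Mir186, and Mir467c (r = 0.99, 0.98 and 0.98). Mir148a and Mir148b correlated with each other at r = 0.97, and Mir29a with Mir148a at r = -0.01. These are descriptions of log2(RPM + 10) over 12 libraries that share depth and scaling, and the libraries fall into 3 genotypes.

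Other miRNAs with published methyltransferase targets were Mir143, Mir101a, Mir101b, Mir126, Mir185 and Mir342, and 5 of the 6 were tested. In Dicer/Dnmt1 KO against WT 4 fell and 1 rose. Mir101a fell by 3.98 (SE 0.64, limma adjusted p = 0.00024) and Mir126, a miRNA of endothelial cells, fell by 4.09 (SE 0.56, limma adjusted p = 5.7e-05), with no read in any Dicer/Dnmt1 KO library. By the limit of 3 reads over that group, Mir126 was at least 12.8-fold lower than in WT. Mir101b fell by 3.60 (limma adjusted p = 0.032) and Mir342 fell by 2.34 (limma adjusted p = 0.032). Mir143, with a published target in Dnmt3a, rose by 2.95 (SE 0.55, limma adjusted p = 0.00090). In Dnmt1 KO against WT 1 of the 5 was called. This was Mir143, which rose by 3.63 (SE 0.70, limma adjusted p = 0.0051), from 333 to 1115 RPM in WT libraries to 5319 and 6961 RPM in Dnmt1 KO. In Dicer/Dnmt1 KO Mir143 stood at 4393 to 14883 RPM. Mir185 had 5 reads in all and was not tested.

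The genes on which these miRNAs are known to act could not be followed in these libraries, which hold 20 to 24 nt RNAs. All 9 DNA methylation genes had reads, but 2 were tested and none was called in any of the 3 comparisons. Dnmt1 had 93 reads in all, and its fold change in Dicer/Dnmt1 KO against WT was 0.03 on the log2 scale (SE 0.69, limma adjusted p = 0.975). Tet1 had 84 reads, and its fold change was -0.88 (SE 0.83, limma adjusted p = 0.544). Dnmt3a and Dnmt3b, which carry the miR-29 matches shown above, had 7 and 21 reads over the 12 libraries, and Dnmt3l had 30, Uhrf1 12, Tet2 14, Tet3 5 and Tdg 8.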

How the data were processed

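Small RNA-seq of 12 ESC libraries was used, grouped by the genotype label. Per the submitters' notes and the methods of the study, reads were trimmed by the authors (Trim Galore 0.3.5), filtered to 20 to 24 nt, mapped with Bowtie2 2.2.6 to NCBIM37 and quantitated as overlaps in SeqMonk. The deposited values are log2 RPM, in which 0 reads appear as 0.9 read. With the minimum of each column taken as 0.9 read, the values gave whole reads (tolerance 0.02) for 100% of values. A further 89 value columns, of no sample here, were not used. Counting did not separate strands.

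Features with at least 10 reads at median depth (111 RPM) in 2 libraries and 15 reads in all were tested, 683 in number, 133 of them miRNAs. TMM factors (trimming 30% of log ratios and 5% of abundances) were computed on the recovered reads, and log2(RPM + 10) was fitted with limma 3.58.1 (R 4.3.3, mean-variance trend, 3 groups, no covariate), calling adjusted p under 0.05. The fit was tested on simulated data. Members are named in every library, and like features are the 3 with the highest Pearson r outside the members, 1 per group of overlapping features. Members, lists and tests were chosen with earlier results of these data known. Alternatives were other scalings, pseudocounts and filters, voom, pairs summed or as a block, fewer groups and each library left out. A limit for 0 is 3 reads, per library or over a group as stated.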

Additional observations from a re-analysis of the deposited data

Results flagged for a closer look

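In groups of 4 or more libraries, a library far from the rest of its group was looked for in 21 sets of member levels and shares, and 6 were found. The rule is set for about 1 in 20 by chance with continuous, separate values. Here a set with reads in 1 library alone is always flagged, and levels and shares use the same reads. The number found can therefore not be compared with chance. Mir29a in Dicer/Dnmt1 KO 2A stood at 804 RPM (51 reads), against 92.9 to 204 RPM in the other 3 libraries. Its share of miRNA reads there was 0.784%, against 0.130% to 0.172%. Mir148b in WT 2B stood at 392 RPM (55 reads), against 179 to 248 RPM in the other 5 WT libraries. The remaining 3 rest on 1 or 2 reads: Mir29c at 8.16 RPM in WT 1A and at 115 RPM in Dicer/Dnmt1 KO 1B, with 0 in the others of each group, and Mir152 at 62.0 RPM in WT 2A, against 0 to 7.13 RPM.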

How the results depend on the processing

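The number of members called in Dicer/Dnmt1 KO against WT was 2 and ranged from 2 to 3 over 24 alternatives, and in Dicer/Dnmt1 KO against Dnmt1 KO it was 2 in all 23. Mir148a (-4.78 to -3.80 and -7.15 to -5.50) and Mir148b (-4.97 to -2.38 and -7.01 to -4.22) were called lower in every one of these. In Dnmt1 KO against WT the number was 0, and it was 1 with a pseudocount of 50, 2 with voom and 3 without both libraries of WT 2. Leaving out 1 library gave 0 to 3 (3 without WT 2A and 1 without Dicer/Dnmt1 KO 2A). With RPM unscaled, the median of all features moved to 0.61, -0.07 and 0.75 in the 3 comparisons, from -0.09, 0.13 and -0.16, and the 165 calls of Dicer/Dnmt1 KO against WT (35 higher, 130 lower) became 200 (84 higher, 116 lower). Mir29a in Dicer/Dnmt1 KO against Dnmt1 KO then reversed from -0.91 to 0.0444. Mir29a in Dicer/Dnmt1 KO against WT stayed positive (0.91 to 2.04) and passed in 4 of 24 alternatives, unscaled, with voom, without both libraries of WT 2 and without WT 2A. The count of features called in Dnmt1 KO against WT, 47, ranged from 16 to 181, in Dicer/Dnmt1 KO against WT from 132 to 207 and in Dicer/Dnmt1 KO against Dnmt1 KO from 107 to 221. The causes were not tested. A replicate block on the title number in Dicer/Dnmt1 KO against WT called 2 members. Same-numbered libraries did not deviate together (correlations -0.23, 0.11, -0.17 and -0.28). Such correlations cannot decide whether these libraries share a culture or a batch. Depth limits Mir152, Mir29b-1, Mir29b-2 and Mir29c, which had 16, 3, 0 and 7 reads in all.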
